A study of Mus musculus with 6 samples.

Results

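The cytosolic ribosomal proteins are the protein parts of the ribosome that works in the cytosol, encoded by the Rpl genes of the large subunit and the Rps genes of the small subunit. Members were taken by gene symbol, as an Rpl or Rps name with a number and an optional final a, l or x, or as Rplp0, Rplp1, Rplp2 or Rpsa, without Rps6k genes and pseudogenes. The rule found 59 genes among 19938 named genes, 37 of the large and 22 of the small subunit. Of these, 56 passed a filter that left out the dimmest 25% of probesets by mean over all arrays, so that no group decided it. They were tested among 14994 genes. The other 3, Rpl10l, Rpl3l and Rpl39l, are paralogs known from testis or striated muscle. A further 24 symbols of this form, Rpl3, Rpl11 and Rps26 among them, had no probeset with 1 symbol and are not analysed here.

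Expression was measured on MoGene 1.0 ST arrays in mouse KSL SLAM cells, a bone marrow fraction rich in haematopoietic stem cells, sorted as Lineage-, c-Kit+, Sca-1+, CD150+, CD48- and CD41-. The PBS group received PBS for 7 days, and the G-CSF group received granulocyte colony-stimulating factor for 7 days at 125 mcg/kg in 2 subcutaneous injections per day. Each group has 3 arrays, each from a pool of 5 to 10 mice, and the sources used here give no strain, genotype or age. A replicate is therefore a pool, and differences between mice within a pool cannot be seen. The comparison asked how transcripts of this fraction differ after G-CSF treatment.

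A ribosome joins a large subunit, which forms peptide bonds, to a small subunit, which reads the messenger RNA, and each subunit carries its own set of proteins on ribosomal RNA. Messenger RNAs of ribosomal proteins begin with a run of pyrimidines, the TOP sequence, through which Larp1 and the kinase mTOR control their translation. Blood stem cells are known for a low rate of protein synthesis, and loss of single ribosomal protein genes causes the anaemias of Diamond-Blackfan and 5q- syndromes.

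Values are log2 intensities, and a difference is the G-CSF mean minus the PBS mean on that scale. Median intensity per array lay between 56.2 and 61.8 on the linear scale. Kit, the c-Kit receptor of the gate, lay at 8.63 or above on every array, and Slamf1 (CD150) lay between 5.95 and 6.65. Cd48 lay between 4.61 and 6.14, around the filter's limit of 5.15, and Itga2b (CD41) between 6.18 and 6.51. The probesets of 39 of the 56 members were among the 100 brightest of the 14994 genes, and 49 were among the 500 brightest. Levels of different probesets are not levels per length, so they do not rank the genes.

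Ribosomal protein genes lay lower in G-CSF than in PBS arrays by a small and similar amount, which in no single gene passed the test. Of the 56 tested members 54 had negative differences, where 49.7% of all genes tested did. Their median difference was -0.25, a level 16.1% lower, against 0.00 over all genes. The middle of the members ran from -0.35 to -0.20 (quartiles). At a limma adjusted p under 0.05 over all genes, 0 of 56 members were called, where 0.0267% of all genes tested were called in either direction and 0.0% as lower. The smallest limma adjusted p of a member was 0.635, for Rpl37a. At an unadjusted p under 0.05, 6 members were lower and 0 higher, against a background of 3.3% of genes lower and 2.73% higher. The groups did not overlap in 15 members, all with G-CSF lower and 0 with G-CSF higher. Over all genes tested, 5.05% were apart with G-CSF lower and 5.77% with G-CSF higher. The 95% interval of a member's difference reached 0.47 to either side at the median, so the interval of a typical member included 0. In this bulk measurement fewer cells of a type and less RNA per cell cannot be told apart.

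**Figure D1:**
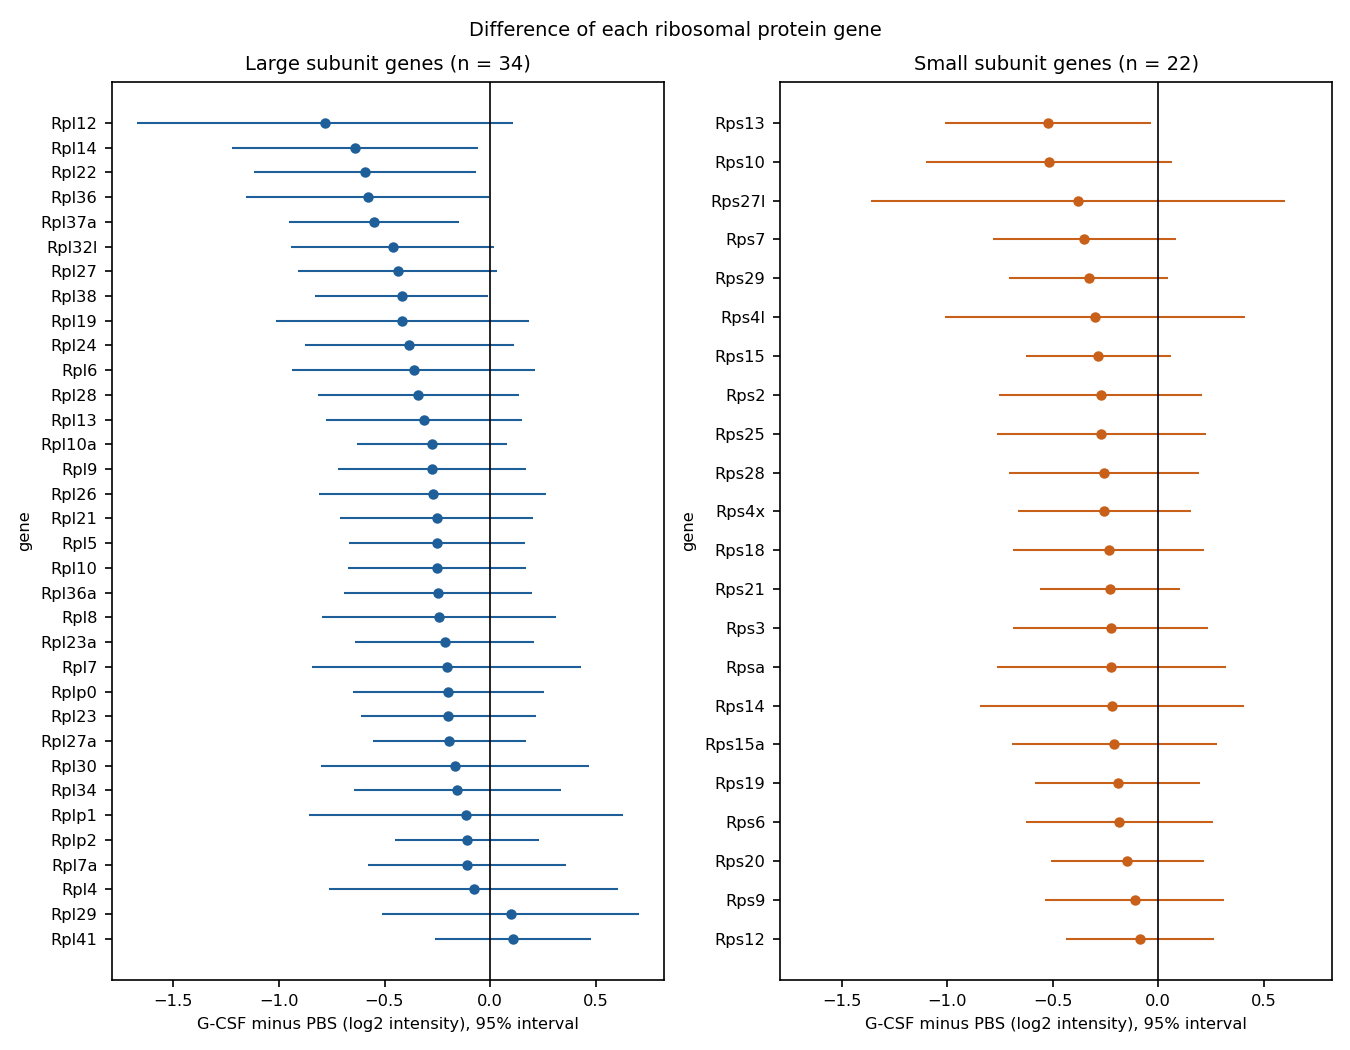
Difference of each of the 56 tested genes between G-CSF and PBS arrays on the log2 scale (dots) with limma's 95% interval (bars), large subunit on the left and small subunit on the right. Nearly all dots lie left of 0, at a median of -0.25, and the intervals of 50 genes include 0.

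The size of the shift depended on single arrays. The median member difference was -0.16 without G-CSF replicate 1 and -0.19 without PBS replicate 3. It was -0.35 without G-CSF replicate 2 and -0.32 without PBS replicate 1. Quantile normalization of the arrays once more gave -0.16, with 52 of 56 members negative. Centring each array on its median gave -0.25, with 54 of 56 negative. Within each group the array order of the members' mean was also that of the mean over all 14994 genes. That overall mean was 6.60, 6.62 and 6.68 in PBS replicates 1 to 3 and 6.57, 6.66 and 6.64 in G-CSF replicates 1 to 3. Its part in the result was not tested.

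Because the members' differences ran in one direction, the starts of their genes were read from RefSeq's promoter table (build GRCm38.p6), which held 47 of the 59. The windows run from 250 bases before to 50 after each annotated start. The 6 letters CCGGAA, the core that ETS factors such as GABP are known to bind, stood on either strand in 23 of the 44 tested members with a window (52.3%). Over all genes of the table the share was 16.7%, and over protein-coding genes 20.9%. The letters CTTTCC, typical of a TOP start, stood on the coding strand within 10 bases of the start in 3 of the 44 (6.82%), against 0.995% of all genes. ATGGC, a core of YY1 sites, was held by 59.1% of the tested members and 44.2% of all genes on either strand, and the TATA letters TATAAA by 13.6% and 15.7%. CTTTCC and the reverse of CCGGAA can overlap by 4 letters. Other pyrimidine runs at a start, such as those of Rps6 and Rps18, do not hold CTTTCC and were not counted. The share with CTTTCC is therefore not the share with a TOP start. Starts in RefSeq can miss the main start used by a cell, so a window without these letters says nothing of the factor.

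The stretches below run from 80 bases before the start to the first 10 of the transcript, and capitals mark CTTTCC near the start and CCGGAA on either strand. Rpl38, Rpl28 and Rps10 are shown because they hold CTTTCC at the start. Rpl27 and Rps7 hold CCGGAA more than once, Rpl37a had the smallest p of all members and holds neither, and Rpl41 is the tested member with the most positive difference. In the same order they lie at chr11:114668500-114668589 (+), chr7:4792885-4792974 (+), chr17:27635235-27635324 (-), chr11:101442165-101442254 (+), chr12:28635944-28636033 (-), chr1:72711180-72711269 (+) and chr10:128549159-128549248 (-), all across the annotated first exon's start.
Rpl38: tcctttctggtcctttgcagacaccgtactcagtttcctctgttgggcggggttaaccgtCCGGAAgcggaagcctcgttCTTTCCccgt
Rpl28: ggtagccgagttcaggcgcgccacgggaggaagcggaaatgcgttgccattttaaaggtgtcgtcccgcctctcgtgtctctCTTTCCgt
Rps10: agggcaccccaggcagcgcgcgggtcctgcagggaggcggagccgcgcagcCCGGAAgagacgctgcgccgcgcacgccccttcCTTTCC
Rpl27: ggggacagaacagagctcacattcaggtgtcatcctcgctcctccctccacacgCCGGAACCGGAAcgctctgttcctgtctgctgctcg
Rps7: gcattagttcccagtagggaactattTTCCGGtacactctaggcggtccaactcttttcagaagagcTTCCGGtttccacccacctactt
Rpl37a: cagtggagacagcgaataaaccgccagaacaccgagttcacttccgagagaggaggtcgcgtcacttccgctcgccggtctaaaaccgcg
Rpl41: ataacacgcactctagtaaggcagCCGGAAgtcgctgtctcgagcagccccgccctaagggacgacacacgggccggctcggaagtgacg
The 3 tested members with CTTTCC differed by a median of -0.42 (range -0.52 to -0.34) and the 41 without it by -0.25 (range -0.78 to 0.11). With 3 genes, and with other pyrimidine starts among the 41, this is a description only.

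In the large subunit, 32 of 34 tested genes lay lower with G-CSF, at a median difference of -0.25. Rpl37a, a small zinc-binding protein, lay at 12.18, 12.18 and 12.40 in PBS replicates 1 to 3 and at 11.48, 11.89 and 11.75 in G-CSF replicates 1 to 3. All G-CSF arrays were below all PBS arrays, and the groups stood 0.29 apart at the nearest arrays. It differed by -0.55 (SE 0.17, 31.6% lower, limma unadjusted p = 0.0144, adjusted p = 0.635). Rpl22, an RNA-binding protein near the peptide exit that developing T cells are known to need, lay at 9.50, 9.53 and 10.18 with PBS and at 8.96, 9.20 and 9.27 with G-CSF. The groups did not overlap, and PBS replicate 3 stood above the other PBS arrays by more than the groups were apart. The difference was -0.59 (SE 0.22, limma adjusted p = 0.761), and -0.37 without PBS replicate 3.

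Rpl14 lay at 9.82, 10.12 and 10.23 with PBS and at 9.40, 9.86 and 8.99 with G-CSF. G-CSF replicate 2 overlapped the PBS arrays, and G-CSF replicate 3 was the lowest. It differed by -0.64 (SE 0.25, limma adjusted p = 0.766), and by -0.43 without G-CSF replicate 3. Rpl36 lay at 11.92, 11.88 and 12.37 with PBS and at 11.07, 11.50 and 11.85 with G-CSF (-0.58, SE 0.24, limma adjusted p = 0.822). Its groups were apart by 0.03 only, between PBS replicate 2 and G-CSF replicate 3.

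Rpl38, whose loss in mice is known to disturb the patterning of the skeleton, lay at 12.05, 12.43 and 12.36 with PBS and at 11.68, 11.93 and 11.98 with G-CSF (-0.42, SE 0.17, limma adjusted p = 0.821). Its G-CSF arrays were all below its PBS arrays. Rpl32l, annotated as a gene like Rpl32, differed by -0.46 (SE 0.20, limma adjusted p = 0.851), with PBS replicate 1 (8.72) below G-CSF replicate 3 (8.74). Rpl27 lay at 12.16, 12.28 and 12.29 with PBS and at 11.42, 11.97 and 12.03 with G-CSF, apart in all arrays, with G-CSF replicate 1 well below the rest. Rpl28, shown above for its CTTTCC start, overlapped between groups, with G-CSF replicate 2 (12.27) above every PBS array (12.20 to 12.24).

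Rpl12, which sits at the base of the ribosomal stalk, had the most negative difference of all members and one of the least certain. It lay at 6.82, 7.07 and 6.84 with PBS and at 5.19, 6.53 and 6.66 with G-CSF. The groups were apart, and G-CSF replicate 1 was more than 1 log2 unit below the others, near the filter's limit. The difference was -0.78 (SE 0.38, limma adjusted p = 0.863), and -0.32 without G-CSF replicate 1.

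Some large subunit genes lay closer to 0. Rpl41, the smallest ribosomal protein, lay at 11.70, 11.54 and 11.89 with PBS and at 11.75, 11.86 and 11.85 with G-CSF, and Rpl29 at 9.57, 9.02 and 8.92 with PBS and at 9.70, 9.06 and 9.04 with G-CSF. Both overlapped between groups, and their differences of 0.11 (SE 0.16) and 0.10 (SE 0.26) were the 2 positive ones among tested members. That of Rpl29 was -0.12 without G-CSF replicate 1. The stalk, which recruits the factors that drive elongation, had small differences too. Its anchor Rplp0 differed by -0.20 (SE 0.19), Rplp1 by -0.11 (SE 0.32) and Rplp2 by -0.11 (SE 0.15), with limma adjusted p from 0.966 to 0.996.

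In Rplp2 the groups were apart by less than 0.01, with G-CSF arrays between 9.39 and 9.43 and PBS arrays between 9.44 and 9.67. Rpl4 (-0.08) was the large subunit gene closest to 0, and its difference was 0.08 with quantile normalization once more. Rpl5, which binds 5S ribosomal RNA and in free form the p53 inhibitor Mdm2, lay at 11.79, 12.15 and 12.11 with PBS and at 11.73, 11.96 and 11.61 with G-CSF (-0.25, SE 0.18, limma adjusted p = 0.947). PBS replicate 1 lay below G-CSF replicate 2, so its groups overlapped. Of the genes known to lie around the exit of the peptide tunnel, 4 of 8 were tested, and all had negative differences (Rpl22 -0.59, Rpl19 -0.42, Rpl26 -0.27, Rpl23a -0.21). So did 32 of the 34 tested large subunit genes.

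In the small subunit, 22 of 22 tested genes lay lower with G-CSF, at a median difference of -0.24. The groups were apart with G-CSF lower in 5 of them (22.7%), against 5.05% of all genes tested. Rps13 lay at 11.21, 11.37 and 11.74 with PBS and at 10.64, 10.99 and 11.12 with G-CSF. It was the small subunit gene with the smallest p, and its groups did not overlap (-0.52, SE 0.21, limma unadjusted p = 0.0386, adjusted p = 0.789). Rps10, a protein of the head and a Diamond-Blackfan gene, lay at 11.49, 11.39 and 11.36 with PBS and at 10.40, 11.36 and 10.93 with G-CSF. The PBS arrays were close together and the G-CSF arrays were spread over nearly 1 log2 unit (-0.52, SE 0.25, limma adjusted p = 0.861), with a difference of -0.27 without G-CSF replicate 1. The groups of Rps10 stood only 0.0043 apart at the nearest arrays. Rps29, Rps15 and Rps21 were the other genes with groups apart, at -0.33, -0.28 and -0.23.

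Rps7 lay at 12.16, 12.35 and 12.42 with PBS and at 11.78, 12.26 and 11.84 with G-CSF (-0.35, SE 0.18, limma adjusted p = 0.895). G-CSF replicate 2 lay above PBS replicate 1, so the groups overlapped. Rps19, the gene most often mutated in Diamond-Blackfan anaemia, lay at 10.22, 10.21 and 10.32 with PBS and at 9.81, 10.15 and 10.22 with G-CSF (-0.19, SE 0.17, limma adjusted p = 0.966). Only its G-CSF replicate 1 stood clearly lower, and the difference was -0.07 without that array. Over the 11 of 21 Diamond-Blackfan and 5q- genes that were tested, all lay lower with G-CSF, at a median difference of -0.26. They are members themselves and lay as the whole set did, where 54 of 56 were negative at a median of -0.25.

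Rps6, the substrate of S6 kinases, lay at 12.73, 12.95 and 13.13 with PBS and at 12.51, 12.79 and 12.96 with G-CSF (-0.18, SE 0.19). Rps12, on the brightest member probeset, differed by -0.09 (SE 0.15), Rps20 by -0.15 (SE 0.15) and Rps9 by -0.11 (SE 0.18), each with a limma adjusted p of 0.966 or above. In these 4 the groups overlapped, and Rps9 stood at 0.01 with quantile normalization once more. Rps27l, a paralog of Rps27 that p53 is known to induce, was the most variable of the small subunit genes. It lay at 7.94, 8.57 and 9.39 with PBS and at 7.60, 8.59 and 8.57 with G-CSF (-0.38, SE 0.42, limma adjusted p = 0.966), a spread within groups larger than the difference, which was -0.0047 without PBS replicate 3 and -0.73 without PBS replicate 1. Rps4l, a paralog of Rps4x, overlapped too (-0.30, SE 0.30), with -0.0097 without PBS replicate 2 and -0.62 without PBS replicate 1. Rps4x itself differed by -0.25 (SE 0.17). Rps15a, among the dimmer members, differed by -0.21 (SE 0.21).

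The 3 paralogs under the filter had means of 4.06 (Rpl39l), 5.02 (Rpl3l) and 5.05 (Rpl10l). Their differences of 0.21, -0.12 and -0.23 lie in the dim range and were not tested. Rpl7l1 and Fau, which carries the small subunit protein eS30 in a fusion, are not members by the symbol rule. Fau differed by -0.31 (SE 0.22) and Rpl7l1 by -0.09 (SE 0.21), with limma adjusted p of 0.947 and 0.988.

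**Figure D2:**
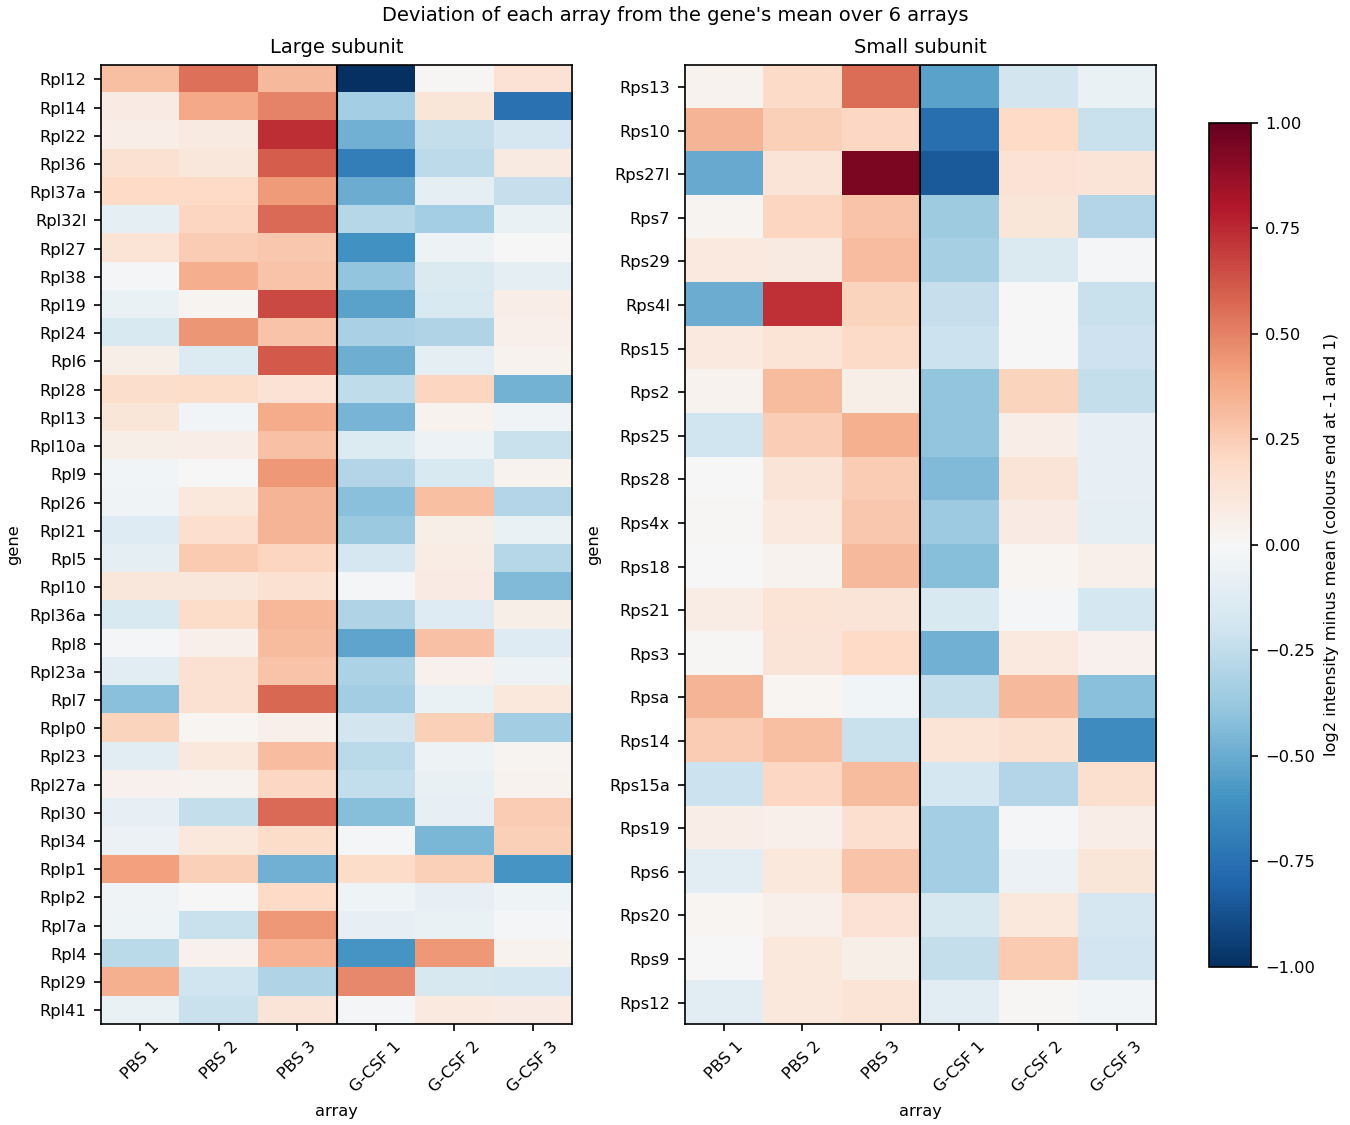
Log2 intensity of each tested gene (rows, from the most negative difference at the top) on each of the 6 arrays (columns), minus the gene's mean over the 6 arrays, with red above and blue below. PBS replicate 3 is the highest array for 39 of the 56 genes and G-CSF replicate 1 the lowest for 36, while Rplp1, Rps14 and Rpl29 are low in the replicate 3 arrays of both groups.

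The arrays differed within groups as much as the groups did: the members' mean spanned 0.278 over the PBS and 0.332 over the G-CSF arrays. PBS replicate 3 was the highest of all 6 arrays in 39 of 56 members, and G-CSF replicate 1 was the lowest in 36. Within the PBS group replicate 3 was the highest array in 41 members, where this held for 34.2% of all genes. Within the G-CSF group replicate 1 was the lowest in 40 members, against 37.2% of all genes. Of the members, 9 went the other way in the PBS group, with replicate 3 below the mean of replicates 1 and 2. Rplp1 stood out among them at 12.14, 11.97 and 11.24 with PBS and at 11.91, 11.96 and 11.13 with G-CSF. Rps14, the gene of 5q- syndrome, lay at 12.60, 12.64 and 12.12 with PBS and at 12.49, 12.51 and 11.72 with G-CSF (-0.22, SE 0.27, limma adjusted p = 0.966). In both genes the replicate 3 arrays of both groups were lower than the mean of the other arrays of their group by 0.50 to 0.81, more than either gene's difference between groups. Rpl29, Rpsa, Rps2, Rplp0 and Rpl28 also had both replicate 3 arrays below the mean of the others. Across the 56 members the step from the other arrays to replicate 3 in the PBS group went with the same step in the G-CSF group (Pearson's r = 0.64, Spearman's rho = 0.59, across genes, which are not independent and share the 6 arrays). Over all genes the same r was 0.19.

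Compared by replicate number, G-CSF minus PBS was negative for 50 of 56 members in replicate 1 (median -0.31), for 40 in replicate 2 (median -0.11) and for 54 in replicate 3 (median -0.39). Between 49.7% and 50.5% of all genes tested were negative in the same comparisons. All 3 numbers gave a negative difference in 36 members. The share of all genes with this was not taken, so the count is a description only. The labels do not say that equal numbers share a day or a batch, so these are pairings by number only.

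Both subunits had similar differences. The large subunit's median was -0.28, -0.11 and -0.40 in replicates 1 to 3, and the small subunit's was -0.36, -0.09 and -0.33. Large subunit genes were negative in 30, 23 and 32 of 34, and small subunit genes in 20, 17 and 22 of 22. Array means of the large subunit were 11.12, 11.21 and 11.42 in PBS replicates 1 to 3 and 10.79, 11.08 and 11.01 in G-CSF replicates 1 to 3. Those of the small subunit were 11.41, 11.59 and 11.65 with PBS and 11.08, 11.47 and 11.30 with G-CSF. The groups did not overlap in the large subunit, and in the small subunit G-CSF replicate 2 lay above PBS replicate 1. The large minus small mean was -0.30 ± 0.07 with PBS and -0.33 ± 0.06 with G-CSF (SD, n = 3 each). These means rest on different probesets, so their sign has no meaning, and they differed between groups by less than the spread between arrays. The difference between the 2 medians was -0.01, from -0.05 to 0.01 over fits without each array.

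**Figure D3:**
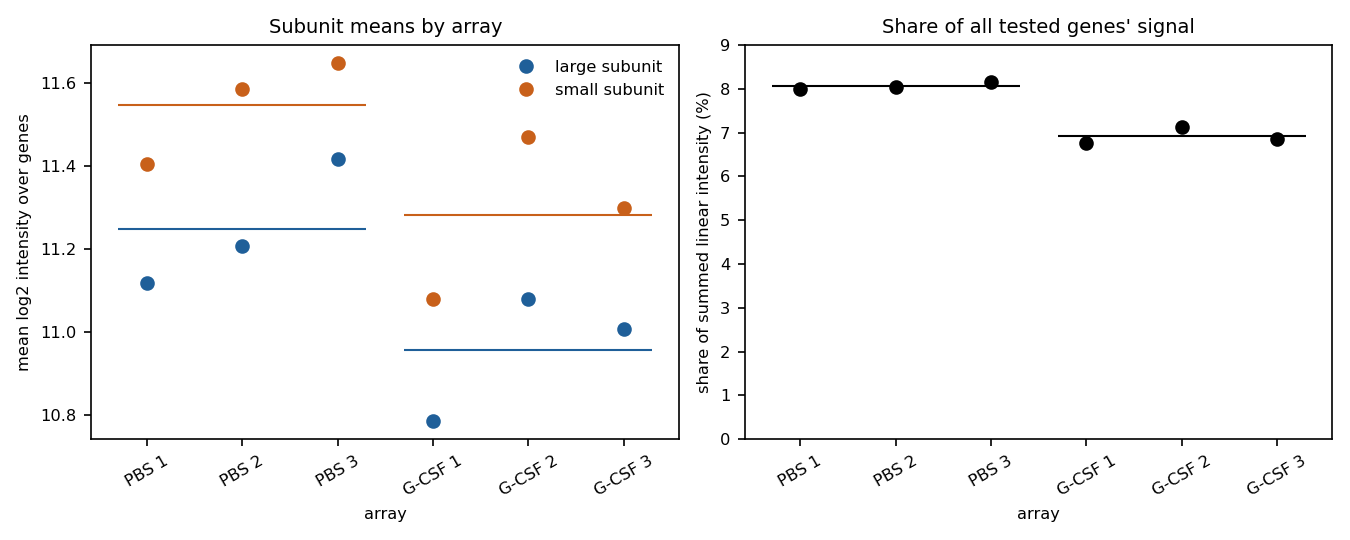
Left, mean log2 intensity over the 34 large and the 22 small subunit genes on each array (dots), with group means as lines. Right, share of the summed linear intensity of all 14994 genes that the 56 genes hold on each array, from 8.005% to 8.15% with PBS and from 6.77% to 7.12% with G-CSF.

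As a share of the summed linear intensity of all genes tested, the 56 members held 8.005%, 8.05% and 8.15% in PBS replicates 1 to 3 and 6.77%, 7.12% and 6.85% in G-CSF replicates 1 to 3. The PBS arrays lay within 0.141 points of each other, and all G-CSF arrays were lower. The share puts bright members first and depends on every other gene in its denominator. The members' own summed intensity overlapped between groups, at 192810 to 226460 with PBS and 155480 to 195470 with G-CSF.

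**Figure D4:**
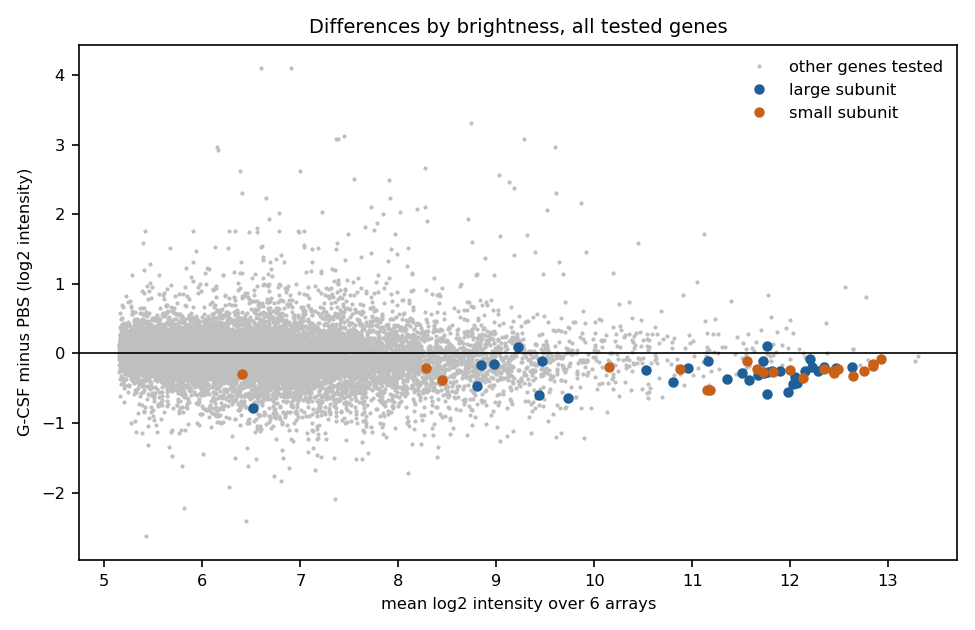
Difference between G-CSF and PBS arrays (log2) against mean log2 intensity over the 6 arrays for 14994 genes, with large subunit genes in blue and small subunit genes in orange. Most members lie at the bright end and just below 0, where other bright genes lie on both sides of 0.

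Other bright genes had medians nearer 0. The 451 other genes among the 500 brightest had a median difference of -0.06, 57.0% of them negative. Their groups were apart with G-CSF lower in 26 (5.8%) and higher in 33 (7.3%). The 80 other genes at or above the members' lower quartile of brightness (10.86) had a median of 0.04, with 42.5% negative. Of these, 1 (1.25%) was apart with G-CSF lower and 11 (13.75%) with G-CSF higher. Over all genes tested the shares were 5.05% and 5.77%. No test of this contrast was made.

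Marker lists of other cells differed in direction. Of the 21 tested genes of a mature neutrophil list, 20 lay higher with G-CSF and their groups were apart, with a median of 1.76, and the list's summed linear intensity was 10966 to 19595 with PBS and 34578 to 45924 with G-CSF. In the list of granulocyte-monocyte progenitor genes 16 of 17 were positive (median 0.92, summed 1729 to 2189 with PBS and 4410 to 8878 with G-CSF). Of these 38 genes 0 passed a limma adjusted p of 0.05, and 33 had an unadjusted p under 0.05. Trem1 was the neutrophil marker under the filter's limit, and Ly6g differed by -0.19. PBS replicate 1 had the lowest neutrophil mean (7.46) and the lowest member mean (11.23) of its group, while both were highest of the G-CSF arrays in replicate 2 (10.05 and 11.23). The mean over all genes was likewise lowest of the PBS arrays in replicate 1 (6.60) and highest of the G-CSF arrays in replicate 2 (6.66). The 2 lists differed in their highest PBS array. It was replicate 2 for the neutrophil mean (8.19, against 7.96 in replicate 3) and replicate 3 for the member mean (11.51). Markers of other lineages lay mostly the other way, with 8 of 10 megakaryocyte genes negative (median -0.35, apart with G-CSF lower in 3 and higher in 1). Their summed linear intensity was 858 to 1117 with PBS and 638 to 702 with G-CSF. Erythroid genes were negative in 7 of 10 (median -0.10), with sums of 1256 to 1855 and 1049 to 1215, so the groups did not overlap in either list's sum. B cell genes were negative in 7 of 7 (median -0.25) and T and NK cell genes in 3 of 4 (median -0.06), with sums that overlapped. Groups were apart with G-CSF lower in 1 of the 10 erythroid, 2 of the 7 B cell and 0 of the 4 T and NK cell genes. In these 4 lists 0 genes passed a limma adjusted p of 0.05, and 6 were lower and 1 higher at an unadjusted p under 0.05. The part of all these cells in the members' shift was not tested. Of 18 stem cell fraction genes 15 were negative (median -0.21), with 0 past the limma adjusted p, and 3 at an unadjusted p under 0.05. In 4 of the 18 (22.2%) the groups were apart with G-CSF lower, against 26.8% of the members and 5.05% of all genes tested.

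Genes that build or serve the ribosome were set beside the members, and 0 of them passed a limma adjusted p of 0.05 in any list. Of 93 tested assembly factors, which process and fold ribosomal RNA into subunits, 57 were negative (median -0.10). Their groups were apart with G-CSF lower in 3 (3.23%) and higher in 2 (2.15%), against 5.05% and 5.77% of all genes tested. Tex10 (-0.79), Ltn1 (0.91), Riok1 (0.63) and Gnl3l (-0.70) had the smallest p, with 2 at an unadjusted limma p under 0.05. The difference of Ltn1 was 0.05 with the mean of its probesets in place of the brightest, and 0.50 without G-CSF replicate 2. Ltn1 is a ubiquitin ligase of stalled ribosomes and Riok1 a kinase of late small subunit maturation. RNA polymerase I genes, which serve the transcription of ribosomal RNA, were negative in 13 of 16 (median -0.09). Znrd1 (-0.63, limma unadjusted p = 0.0347), Cd3eap (-0.67), Polr1b (-0.24) and the shared factor Tbp (-0.37) had the smallest p, and in 0 of the 16 were the groups apart.

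Translation factors were negative in 34 of 44 (median -0.15). Their groups were apart with G-CSF lower in 4 (9.09%), against 5.05% of all genes tested. Eif3h, a subunit of the initiation factor that holds the small subunit, lay at 11.00 ± 0.26 with PBS and 10.38 ± 0.23 with G-CSF (SD, n = 3 each; -0.62, limma adjusted p = 0.674). Eif4a2, an RNA helicase of initiation, differed by -0.45 (SE 0.16), Eif5a by -0.70 (SE 0.27) and the cap-binding protein Eif4e by -0.62 (SE 0.24). With the mean of each gene's probesets Eif4e differed by -0.01 and Eif5a by -0.37. Genes that control translation in growth had no common direction, with 10 of 25 negative and a median of 0.03. Rps6ka3, a kinase of the RSK family, differed by 0.97 (SE 0.23, limma adjusted p = 0.386) and Mtor by 0.38 (SE 0.17), and in both genes the groups were apart with G-CSF higher. Rictor (-0.58) and Rheb (-0.73), the activator of mTOR complex 1, were apart the other way.

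Of 10 tested genes of p53 surveillance, which answers to unassembled ribosomal proteins, 7 were negative (median -0.07). Sesn1 (-0.78, limma unadjusted p = 0.0285), Trp53inp1 (-0.50), Ccng1 (-0.41) and Aen (0.18) had the smallest p. Groups were apart in Sesn1 alone among the 10. Mitochondrial ribosomal proteins, which form a separate ribosome, were negative in 58 of 76 tested genes, with a median of -0.21. Their groups were apart with G-CSF lower in 4 of 76 (5.26%), against 5.05% of all genes tested. Their median residual SD was 0.47, against 0.24 in the cytosolic members. As in the cytosolic genes, PBS replicate 3 had the highest mean of that list (7.58) and G-CSF replicate 1 the lowest (6.74).

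**Figure D5:**
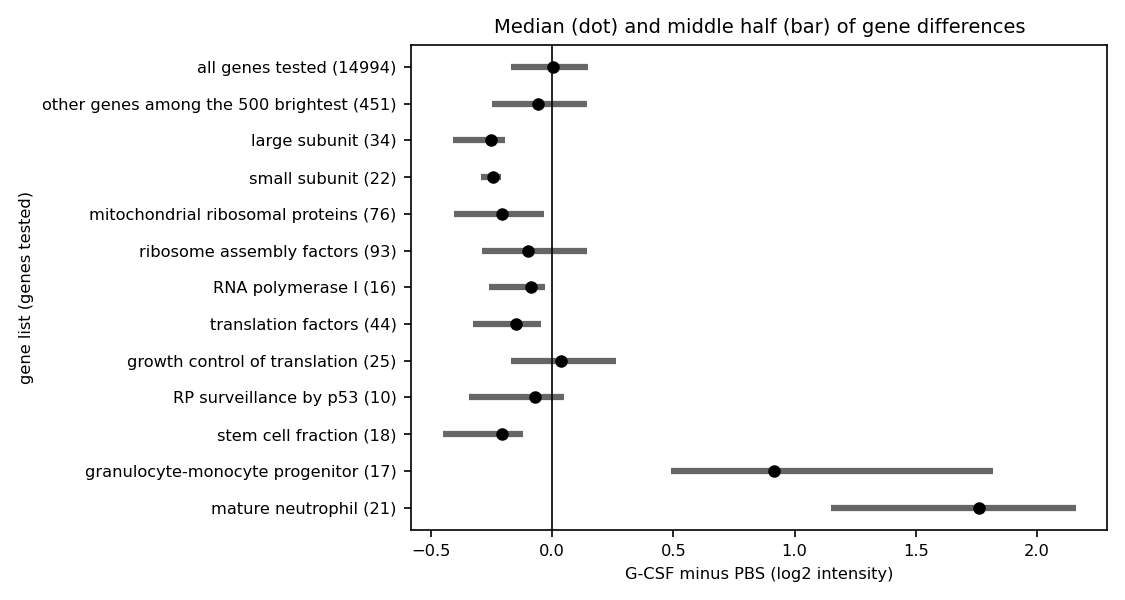
Median (dot) and quartiles (bar) of gene differences between G-CSF and PBS arrays on the log2 scale, by gene list with the number of genes tested. Both ribosomal subunits sit near -0.25 with short bars, growth control genes lie around 0, and the neutrophil and progenitor lists lie at 1.76 and 0.92.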

How the data were processed

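The authors deposited 1 intensity per probeset and array on a linear scale for 35554 probesets. Per the submitters' processing notes RMA was run. The sources used here name neither its version nor which arrays it took together. RNA was purified on columns and amplified with the NuGen Ovation system, per the labels. The log2 was taken here, although the design had assumed log2 values. Probesets with 1 gene symbol in the platform annotation (21789) were used, 1621 with several were not, the dimmest 25% were left out, and the brightest probeset stood for a gene. Near-identical copies and pseudogenes of ribosomal protein genes may share signal with these probesets.

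Groups were compared with limma 3.58.1 in R 4.3.3 (lmFit, eBayes), with Benjamini-Hochberg adjustment over 14994 genes, two-sided. On simulated arrays of that size the fit called 0.4% of genes shifted by 0.5, 34.8% of those shifted by 1 and 82.8% of those shifted by 2 on the log2 scale. Members and lists were chosen with earlier results of these data known, so no p over a list is given. Genes named by rule are, per subunit, those with the 6 smallest p, the 2 differences nearest 0 and the positive ones. Over both subunits they are the 3 brightest and 3 dimmest members, the disease, stalk and paralog genes, and per list the 4 smallest p. Others named for their groups or arrays were chosen after their values were seen. Symbols of all 59 members matched the RefSeq gene table. Alternatives are given in the closing section. The number of arrays limits the precision.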

Additional observations from a re-analysis of the deposited data

How the results depend on the processing

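No member passed a limma adjusted p of 0.05 under any of the 15 alternatives, with 0 to 8 of them lower at an unadjusted p under 0.05. The count over all genes was 4, and 12 with quantile normalization once more, 2 with a minimum fold of 1.5 and 0 to 6 without each array. The count of members apart with G-CSF lower was 15, and 15 to 31 without each array, the highest without PBS replicate 1, where fewer arrays make separation easier. It fell to 12 with quantile normalization once more and to 13 with each array centred on its median, and was 16 with the mean of probesets. Members with negative differences were 51 to 54 of 56 without each array, and 52 to 56 under the other alternatives (of 59 with no filter). Quantile normalization once more turned Rpl4 to 0.0763 and Rps9 to 0.00889. It also left smaller differences in Rplp0 (-0.06), Rpl5 (-0.11), Rpl26 (-0.12), Rps14 (-0.12), Rps21 (-0.14), Rps15 (-0.18) and Rps7 (-0.20), and a larger one in Rpl41 (0.22). Leaving out single arrays gave both signs for Rpl29 (-0.12 to 0.30), Rpl4 (-0.32 to 0.20), Rplp1 (-0.38 to 0.15), Rps14 (-0.39 to 0.0397) and Rpl7l1 (-0.21 to 0.0915). These ranges were taken for the genes named by rule only. Members outside them also changed sign, such as Rpl7, Rpl7a and Rpl30 without PBS replicate 3. The cause was not tested. With the replicate number as a block 5 genes and 0 members were called, and 8 members were lower at an unadjusted p under 0.05. Same-numbered arrays correlated in their deviations at r = 0.29, 0.02 and 0.19 for numbers 1 to 3, and differently numbered arrays at -0.28 to 0.10. The arrays of numbers 1 and 3 went best with those of their own number, while G-CSF replicate 2 went best with PBS replicate 3 (0.10). These values do not settle whether the numbers pair the arrays.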

Other observations

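Probesets whose annotation lists several symbols, 1 of them a ribosomal protein, were outside the comparison, and no gene is named from them. There were 233, of which 5 also list a small nucleolar RNA. Of the other 228, all brighter than the filter's limit, 227 had negative differences, with a median of -0.25. Many list the same gene or its copies, so they are not separate measurements. Among probesets with 1 symbol, 39 of the 59 members had several, up to 14 for Rps12, and 210 of 215 member probesets were negative. In 54 of the 56 tested members all probesets were negative. The widest gap between probesets of a gene was in Rpl23, where the brighter one differed by -0.20 and the dimmer one, with a mean of 9.71, by -1.30.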
